A study of Mus musculus with 2 samples.

Results

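The Mir322, Mir503 and Mir351 cluster is a row of 7 microRNA (miRNA) hairpins on the mouse X chromosome: Mir322, Mir503, Mir351, Mir542, Mir450a-2, Mir450a-1 and Mir450b. They were chosen by name from the 1973 miRNA genes that the deposited tables list. The rule used no levels, but earlier results of these data were known. All 7 were found through their Ensembl identifiers in GENCODE M21, which writes Mir450a-1 and Mir450a-2 as Mir450-1 and Mir450-2. RNA shorter than 30 nt was sequenced from the lungs of B6NCrl embryos aged 14.5 days (E14.5), when the airways branch. The 2 libraries, replicate 1 and replicate 2, form 1 group, and the labels name no treatment, mutant allele or other stage. The labels describe each sample as a single lung of a pup, collected on different days, and also give the sex as pooled. The number of X chromosomes behind each library of these X-linked hairpins is therefore not known. In a whole lung, fewer cells of a type and less RNA per cell cannot be told apart.

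Replicate 1 held 5128214 counts on the strand of a miRNA gene and replicate 2 held 2332032. Levels are given in CPM, counts scaled to a library total of 1000000, so a single count weighs 0.195 CPM in the first library and 0.429 CPM in the other. Intervals are 95% exact (Clopper-Pearson) binomial intervals and cover counting error only. The endothelial Mir126a stood at 67235 ± 12441 CPM (SD, n = 2), the 2 smooth muscle genes summed to 79791 and 62023 CPM and the 5 epithelial miR-200 genes to 33294 and 33730. The lists for mesenchyme (4 genes, 9078 and 10251 CPM), multiciliated cells (5 genes, 2298 and 1750), white blood cells (3 genes, 691 and 662) and erythroid cells (2 genes, 496.7 and 391.5) summed to less. These sums leave out multimapping reads, so genes that share a mature sequence can stand too low in them. The listed markers name cell types and not the organ, so they do not separate lung from other organs with these cell types.

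The hairpins of this cluster are known to be transcribed together and then cut from a shared precursor RNA into separate miRNAs. A miRNA finds its targets mainly through its seed, the bases from position 2 to position 8 counted from its 5′ end. miR-322, the mouse counterpart of human miR-424, and miR-503 belong to the extended miR-15/16 family, which is known for lowering cyclins and other drivers of the cell cycle. In mouse, both are known to rise when myoblasts leave the cycle and differentiate, and in lung vessels their human counterparts are known to restrain fibroblast growth factor signalling. miR-351 carries the seed of miR-125, a family known from differentiation and haematopoiesis.

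The mature sequences show which members can act on the same targets. They are given 5′ to 3′ from RefSeq (GRCm38.p6), with the seed in capitals, for the arm that carries each miRNA's usual name. The counts are per hairpin and do not separate the arms.
miR-322-5p: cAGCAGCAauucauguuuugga
miR-503-5p: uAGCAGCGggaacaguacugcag
miR-351-5p: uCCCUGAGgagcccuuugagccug
miR-542-3p: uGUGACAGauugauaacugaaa
miR-450a-5p: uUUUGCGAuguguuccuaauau
miR-450b-5p: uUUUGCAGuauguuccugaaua
The 7 hairpins thus gave 6 different main mature sequences with 6 different seeds, since Mir450a-1 and Mir450a-2 both yield miR-450a-5p. miR-322-5p and miR-503-5p share bases 2 to 7 and part at the last seed base, a difference written A8G (miR-322-5p first). miR-450a-5p and miR-450b-5p differ at 7 of 22 positions, of which G7A and A8G lie in the seed.

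In mm10 the cluster spans 6353 bases of chromosome X, from 53047997 to 53054349, and all 7 hairpins lie on the minus strand. None (0 of 7) overlaps an annotated gene of another kind in GENCODE M21. Read in the direction of transcription, Mir322 (ENSMUSG00000065418.1, 53054255 to 53054349) comes first, Mir503 (ENSMUSG00000076122.1, 53053984 to 53054054) follows after 200 bases and Mir351 (ENSMUSG00000065503.1, 53053255 to 53053353) after another 630. A gap of 3767 bases, which holds the long noncoding RNA gene Gm28730 on the same strand, separates Mir351 from Mir542 (ENSMUSG00000076140.1, 53049403 to 53049487). Mir450a-2 (ENSMUSG00000076399.1, 53048299 to 53048367) lies 1035 bases beyond Mir542, Mir450a-1 (ENSMUSG00000065486.1, 53048154 to 53048244) another 54 bases on and Mir450b (ENSMUSG00000076050.1, 53047997 to 53048078) another 75. The nearest gene upstream of Mir322, at 696 bases and on the same strand, is the noncoding C430049B03Rik.

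Most of the counts of the cluster came from its first hairpin. Its 7 hairpins together held 6.22% of counts in replicate 1 (interval 6.20 to 6.24) and 5.43% in replicate 2 (5.40 to 5.46), a mean of 5.83%. With multimapping and other mapped reads that were assigned to no gene in the denominator, the mean was 3.37%. The 3 upstream hairpins held 5.68% ± 0.554 (SD, n = 2) and the 4 downstream ones 0.143% ± 0.00287. Both libraries held at least 10 counts of each of the 7, and their places ran from rank 5 to rank 257 among the 1973 genes. These ranks count reads that were assigned to a gene, so genes that share a mature sequence can rank too low. How evenly different sequences enter a library was not measured.

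**Figure D1:**
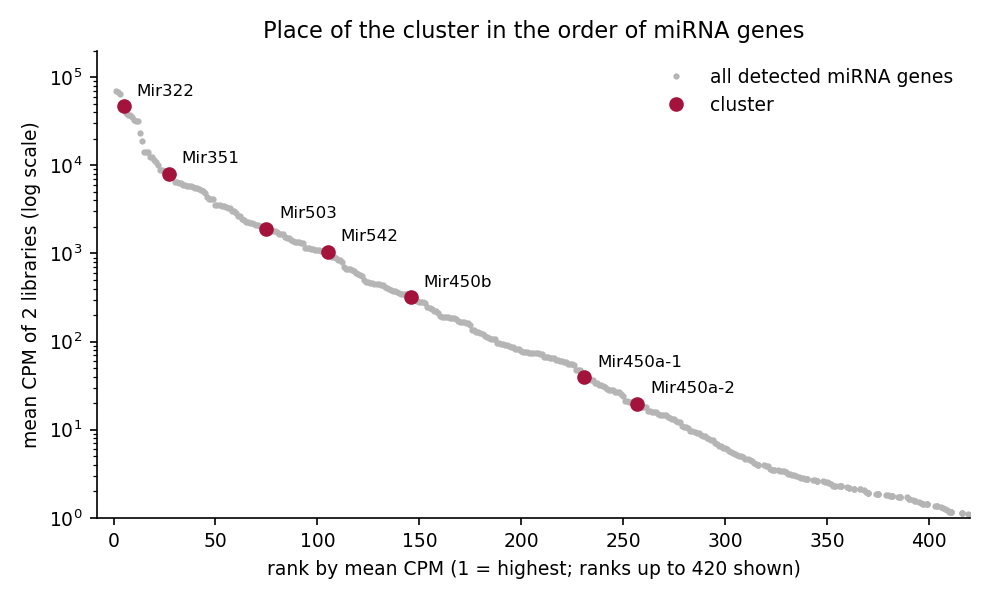
Mean CPM of the 2 libraries on a log scale against rank for detected miRNA genes (grey), with the 7 hairpins of the cluster in red. The cluster reaches from Mir322 at rank 5 to Mir450a-2 at rank 257, with the other 5 hairpins spread between them.

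Mir322 had 259910 counts in replicate 1 and 100206 in replicate 2, which are levels of 50682 and 42969 CPM. It held rank 5 in both libraries, and its SD was 11.6% of its mean. Mir503, the nearest hairpin, had 10133 and 4319 counts (1976 and 1852 CPM), a level of 1914 ± 87.6 CPM and rank 75. Mir503, the next hairpin downstream, was thus read far less often than Mir322 in both libraries.

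Mir351 had 41445 and 18851 counts, which are 8082 CPM (interval 8004 to 8160) and 8084 CPM (7969 to 8199). The difference between its libraries was smaller than either interval. Its place, at rank 27, puts it above Mir503 although it lies further downstream, with levels 4.09 and 4.36 times those of Mir503.

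Mir542, whose 3p arm is known to target the survival factor survivin, had 5413 and 2442 counts (1056 and 1047 CPM), a mean level of 1051 ± 5.92 CPM. Mir450b, at the downstream end, had 1709 and 717 counts (333 and 307 CPM). Mir450a-1 had 211 and 89 counts (41.1 and 38.2 CPM), and Mir450a-2 had 110 and 42 (21.5 and 18.01 CPM). As counted, Mir450b had 5.32 and 5.47 times the level of the 2 Mir450a hairpins together.

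The levels of the Mir450a hairpins are lower bounds, so ratios of other hairpins to them may be too high as counted. A read of miR-450a-5p matches both hairpins equally, because they share a run of 25 bases that holds it, and multimapping reads (32.9% and 33.1% of all reads) were assigned to no gene in the deposited counts. The arms that tell the hairpins apart are the 3p arms, shown here for that reason with the seed in capitals.
miR-450a-1-3p: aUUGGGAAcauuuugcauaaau
miR-450a-2-3p: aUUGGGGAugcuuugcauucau
miR-450b-3p: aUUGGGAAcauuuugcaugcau
The 3p arms of Mir450a-1 and Mir450a-2 differ at 6 of 22 positions, among them A7G in the seed. miR-450a-1-3p and miR-450b-3p share a seed and differ at 2 positions, A19G and A20C. The hairpins Mir450b and Mir450a-1 share a run of 19 bases, so short reads of Mir450b may be lost to multimapping as well. The mature sequences of Mir322, Mir503, Mir542 and Mir450b each occurred in 1 of the 1005 RefSeq hairpins searched. Matches elsewhere in the genome were not analysed here.

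Ordered by level as counted, the cluster ran Mir322, Mir351, Mir503, Mir542, Mir450b, Mir450a-1 and Mir450a-2, and the order was the same in both libraries. The places of Mir450a-1 and Mir450a-2 rest on the reads that were assigned to them. For all 6 pairs of neighbours in this order, the lower value of the higher gene exceeded the higher value of the lower gene. The closest neighbours were Mir503 and Mir542, which stood 1.87-fold and 1.77-fold apart. Mir450a-1 and Mir450a-2 followed at 1.92-fold and 2.12-fold, in the reads left after multimapping. No test was made between hairpins, since exact permutation of 2 values against 2 cannot pass a threshold of 0.05. The counted level of Mir322 was 2363 and 2386 times that of Mir450a-2, ratios that may be too high for the same reason.

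**Figure D2:**
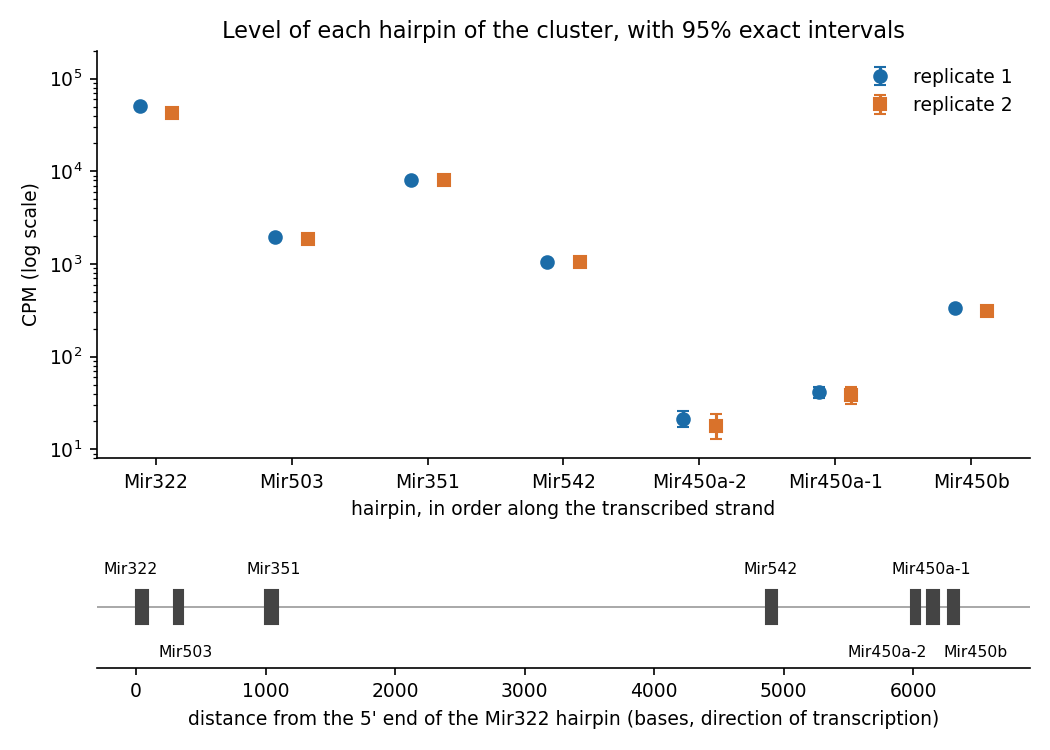
Top, CPM on a log scale of each hairpin in replicate 1 (circles) and replicate 2 (squares), in the order of transcription, with 95% exact binomial intervals. Bottom, the hairpins to scale by distance in bases from the 5′ end of Mir322. Mir351 at 996 bases, Mir450a-1 at 6105 bases and Mir450b at 6271 bases each stand above the hairpin before them in these counts.

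Ratios within a library need no scaling between libraries. The level of Mir322 was 6.27 and 5.32 times that of Mir351, or 2.53 ± 0.17 (SD, n = 2) on the log2 scale. It exceeded Mir503 by 25.6-fold and 23.2-fold (4.61 ± 0.10) and Mir542 by 48.0-fold and 41.0-fold (5.47 ± 0.16). Over Mir450b it stood 152-fold and 140-fold higher (7.19 ± 0.09). Mir322 took 81.5% of the cluster's counts in replicate 1 (81.4 to 81.6) and 79.1% in replicate 2 (78.9 to 79.3), while Mir351 took 13.0% (12.9 to 13.1) and 14.9% (14.7 to 15.1). These shares shifted by more than counting error, with Mir322 lower and Mir351 higher in replicate 2. The share of Mir450b, by contrast, was 0.536% (0.511 to 0.562) and 0.566% (0.525 to 0.609), with overlapping intervals.

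When genes were grouped by the seed of their miRNA, the cluster supplied most of the counts of the genes in 2 seed families. The miR-15/16 sequences from outside the cluster that are printed here for comparison with miR-322-5p carry the same bases 2 to 8. They differ from it at base 1 (C1U, miR-322-5p first) and beyond the seed.
miR-15a-5p: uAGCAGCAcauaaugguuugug
miR-15b-5p: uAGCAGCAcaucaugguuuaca
miR-16-5p: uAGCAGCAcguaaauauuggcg
miR-195a-5p: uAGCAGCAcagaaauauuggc
Over the positions compared, base 1 included, these sequences differ from miR-322-5p at 7 positions (miR-15a-5p), 6 (miR-15b-5p), 10 (miR-16-5p) and 10 (miR-195a-5p). C1U does not hold for every other miRNA with this seed: miR-497a-5p, which is not printed, has the same base 1 as miR-322-5p. Mir322 held 77.5% of the counts of the 10 listed genes with this seed in replicate 1 (77.4 to 77.7) and 74.1% in replicate 2 (73.8 to 74.3). The rest of the family came from Mir15a at 5450 ± 144 CPM, Mir16-1 at 3516 ± 410, Mir15b at 3010 ± 18.3, Mir195a at 1823 ± 189 and Mir16-2 at 1066 ± 207. The other 4 listed genes with the seed, Mir195b, Mir6342, Mir6353 and Mir6419, had 0 counts in both libraries, which allows up to 3 counts each (0.585 CPM in replicate 1, 1.29 CPM in replicate 2). When Mir503 was counted in through the shared bases 2 to 7, the cluster held 78.2% and 74.9% of the family.

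These shares rest on which reads could be assigned, and they count whole hairpins. Reads of the other arm, which has another seed in Mir322 and in Mir351, are therefore included. miR-16-5p is made by both Mir16-1 and Mir16-2, so its reads are lost to multimapping in part, and the share of Mir322 among all such reads may be lower than counted. Mir497, a gene with the same seed, is not listed in the tables, but Mir497b, which overlaps it on the other strand, had 10309 and 4297 counts on the strand of Mir497. With those counts added, an alternative chosen after seeing the data, Mir322 held 75.2% and 71.8% of the family.

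For the other family, the sequences of miR-125 are printed beside that of miR-351-5p above because all share bases 1 to 8.
miR-125a-5p: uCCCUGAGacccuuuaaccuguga
miR-125b-5p: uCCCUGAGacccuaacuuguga
Over all positions compared, bases 1 to 8 included, they differ from miR-351-5p at 14 of 24 (miR-125a-5p) and at 12 of 22 (miR-125b-5p). All of these differences lie beyond base 8. Mir351 held 67.8% of the counts of the 6 listed genes with this seed in replicate 1 (67.4 to 68.2) and 64.7% in replicate 2 (64.1 to 65.2). Mir125a followed at 3444 ± 437 CPM, and Mir125b-2 and Mir125b-1 stood at 401 ± 10.2 and 284 ± 16.2 CPM. miR-125b-5p is made by both Mir125b genes, so their levels are lower bounds as well. The share of Mir351 among all reads of these genes may therefore be lower than counted, and reads of both arms are included. Mir6367 and Mir6394 had 0 counts in both libraries. The main arms of Mir542, Mir503 and Mir450b shared their full seed with no other gene in the reference (1 gene each), and that of Mir450a only with its own second copy.

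**Figure D3:**
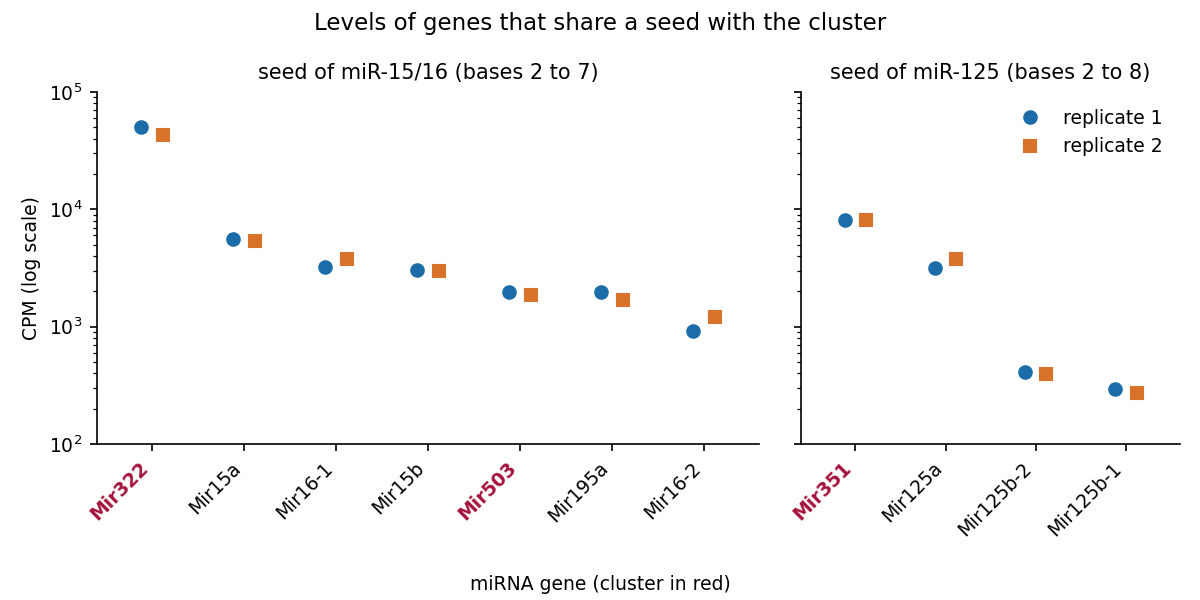
CPM on a log scale of the genes that share the miR-15/16 seed (bases 2 to 7, left) or the miR-125 seed (bases 2 to 8, right), in replicate 1 (circles) and replicate 2 (squares), with the cluster named in red. As counted, Mir322 and Mir351 lead their families in both libraries. Genes with 0 counts and Mir497, which is not listed, are left out.

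Among X-linked miRNAs the cluster was the main source of the reads that were assigned to a gene. Multimapping reads (32.9% and 33.1% of all reads) were assigned to no gene, so the shares and places below leave them out. The cluster held 68.5% of the counts of the 120 X-linked genes listed in replicate 1 (68.4 to 68.7) and 65.4% in replicate 2 (65.2 to 65.6). Mir322 was the highest X-linked gene and Mir351 was next, level with Mir98, a let-7 gene in Huwe1, whose 8126 and 7659 CPM lay on both sides of the values of Mir351. Mir652 (5889 ± 490 CPM) and Mir361 (2679 ± 154) followed. Mir503 and Mir542 took places 7 and 11 on the chromosome, and Mir450b, Mir450a-1 and Mir450a-2 places 23, 29 and 32. The other 113 X-linked genes together summed to 28574 and 28777 CPM, and 67 of them had 0 counts in both libraries.

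In the order of all genes, Mir322 lay between Mirlet7g (51133 ± 303 CPM) and Mirlet7i (39399 ± 4251). The 42969 and 50682 CPM of Mir322 both lay above the higher value of Mirlet7i (42404 CPM) and below the lower value of Mirlet7g (50918 CPM), so these 3 genes kept their order within the spread. Mir351 stood just above Mir127 (8075 ± 11.2 CPM) and below Mir106b (8415 ± 389). Mir503 lay between Mir337 (1990 ± 51.5 CPM) and Mir195a (1823 ± 189), and its range overlapped both. By the ratio of the libraries, the genes nearest to Mir322 among 101 others of at least 1000 CPM were Mir341 (log2 ratio -0.33), Mir1193 (-0.33) and Mir872 (-0.31). With 2 libraries this likeness rests on a single ratio per gene.

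The design holds no contrast between conditions, so the only comparison is between the libraries, and it measures reads of these libraries. The day of collection differs between them too and cannot be told apart from the replicate. For each gene with at least 10 counts in all, the split of its counts between the libraries was set against their TMM-scaled sizes in a two-sided exact binomial test (TMM, trimmed mean of M values, is a scaling that sets most genes equal), with Benjamini-Hochberg adjustment over all 404 genes tested. Of the 7 hairpins 5 passed an adjusted p of 0.05, all 5 lower in replicate 2, where 41.8% of all genes tested passed, 24% lower and 17.8% higher. Genes with many counts passed often, since 89 of the 105 genes of at least 1000 CPM did. The median log2 ratio of the 7 hairpins was -0.19, beside -0.03 over all genes tested and -0.06 over those of at least 1000 CPM.

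Mir322 fell from 50682 to 42969 CPM between the libraries, a log2 ratio of -0.33 after TMM scaling (exact binomial test, adjusted p of at most 4.04e-299). Mir503 followed at -0.18 (exact binomial adjusted p = 1.28e-11), Mir450b at -0.20 (exact binomial adjusted p = 0.00412) and Mir542 at -0.10 (exact binomial adjusted p = 0.0117). Mir351 passed at -0.09 (exact binomial adjusted p = 1.11e-11), but scaling decides its direction, as its log2 ratio was 0.000312 with library totals. Mir450a-2 (-0.32) and Mir450a-1 (-0.19) did not pass (exact binomial adjusted p of 0.376 and 0.465).

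Counting error is the only error in that test. When edgeR's common dispersion for this pair of libraries (0.0341, a coefficient of variation of 18.5%) was included in an exact beta-binomial test, 0 of the 7 hairpins passed, where 0.248% of the genes tested did. At an unadjusted p under 0.05 that test had 15 genes, 0 of them hairpins of the cluster. The dispersion was estimated from the same 2 libraries that the test compares, so few genes could pass. This test therefore cannot show whether the hairpins differ. With library totals 2 of the 7 passed, Mir322 and Mir503, and the split over all genes turned from 72 higher and 97 lower in replicate 2 to 112 higher and 65 lower. The libraries also differed in marker miRNAs: the striated muscle list summed to 368 and 56.2 CPM over the 8 of 9 listed genes found in the tables, of which Mir133a-1 and Mir133a-2 had 0 counts. Mir208a alone, a cardiac miRNA, went from 299 to 11.6 CPM in that list, while Mir206 stood at 6.24 and 12.9 CPM. The endothelial Mir126a stood at 76033 and 58438 CPM. In the binomial test with TMM scaling, all 4 mesenchyme genes passed as higher in replicate 2, with a median log2 ratio of 0.30. Mir214, the most abundant of the 4, had a log2 ratio of 0.07. With the dispersion added, no gene passed as higher in replicate 2. The part of these differences in the levels of the cluster was not tested.

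**Figure D4:**
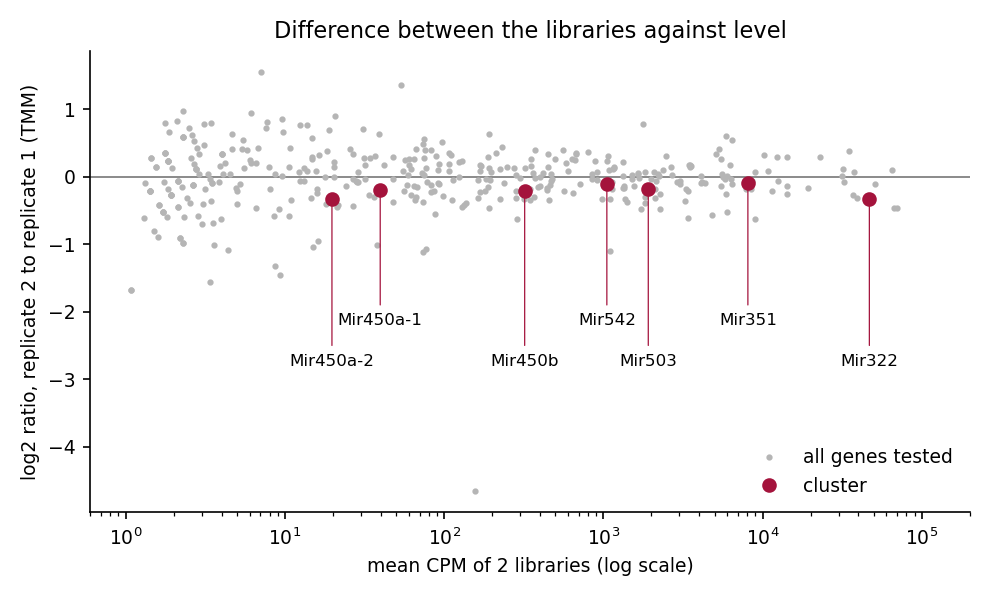
Log2 ratio of replicate 2 to replicate 1 after TMM scaling against mean CPM on a log scale, for all genes tested (grey) and the 7 hairpins (red). The hairpins lie between -0.33 and -0.09, inside the cloud of genes at their level.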

How the data were processed

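Small RNA libraries of 2 E14.5 lung samples were analysed from the deposited tables. The authors deposited whole-number counts per miRNA gene, not normalized, in 3 columns without a header. On the values these are counts without regard to strand, on the gene strand and on the opposite strand, and the gene-strand column was used. Per the deposited readme, alignments were to mm10 with GENCODE M4. Aligner, counter and trimming: not given in the sources used here. The 4 summary entries stand for no gene and were kept out of library sizes. They were 12.7% (unmapped), 32.9% (multimapping), 4.10% (no feature) and 0% (ambiguous) of 10200412 reads in replicate 1, and 11.7%, 33.1%, 3.93% and 0% of 4544184 reads in replicate 2.

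Symbols and coordinates came from GENCODE M21 (GRCm38, the mm10 build; 1894 of 1973 identifiers matched) and sequences from RefSeq (GRCm38.p6), which held mature sequences for all 7 hairpins. Members, lists and tests were chosen with earlier results of these data known. The text names all 7 members, genes sharing a seed with them, their neighbours in rank, the 3 genes of at least 1000 CPM nearest to Mir322 in library ratio, a list of X-linked genes and cell type markers. Mir497b and Mir98's place beside Mir351 were taken up after their values were seen. Of 31 other X-linked genes on that list 29 were found, and 23 were tested, of which 7 were higher and 7 lower in replicate 2.

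CPM used all gene-strand counts. The binomial test took genes with at least 10 counts over both libraries, with a pseudocount of 1 CPM on log2 ratios, and was tested on simulated data. edgeR's quasi-likelihood test has no residual degrees of freedom here. Alternatives were other denominators, the unstranded column, library totals, DESeq2 size factors, count minimums of 1 and 20, pseudocounts of 0.5 and 5 CPM, added dispersion, other seed definitions and leaving out each replicate. Software was R 4.3.3, edgeR 4.0.16, DESeq2 1.42.0, Python 3.11.15, scipy 1.17.1 and ViennaRNA 2.7.2.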

Additional observations from a re-analysis of the deposited data

Results flagged for a closer look

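Counts appeared in a column outside the main measurement, the strand opposite to the listed gene, at Mir497b on chromosome 11 (70234692 to 70234816, minus strand). There were 10309 such counts in replicate 1 and 4297 in replicate 2, or 1926 ± 119 CPM (SD, n = 2), against 0 and 2 counts on the strand of Mir497b itself. RefSeq places Mir497 (70234717 to 70234800, plus strand), whose 5p arm has the seed of miR-322-5p, inside Mir497b. At that level Mir497 would stand beside Mir503 (1914 ± 87.6 CPM). The 7 hairpins of the cluster had 0 counts on the opposite strand in both libraries, which allows up to 3 counts each.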

How the results depend on the processing

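The order of the 7 hairpins kept all 6 of its steps with the unstranded column and with either library alone. With multimapping and other mapped unassigned reads in the denominator, the mean level of Mir322 was 27072 CPM in place of 46826 and the cluster held 3.37% of reads in place of 5.83%. Without Mir322 the share of the other 6 hairpins was 1.14%. With 1 library left out, the level of Mir322 ran from 42969 to 50682 CPM and the share of the cluster from 5.43% to 6.22%. Without genes that share their mature sequence, the cluster held 81.9% of the miR-15/16 seed counts in place of 75.8% and 70.2% of the miR-125 seed counts in place of 66.2%; these families lose 2 genes each by construction, and with 1 library left out the values ran from 74.1% to 77.5% and from 64.7% to 67.8%. Between the libraries, 5 hairpins passed with TMM scaling and with DESeq2 size factors, 2 with library totals and 0 with the common dispersion added. That dispersion was estimated from the same 2 libraries, so few genes could pass. The log2 ratio of Mir351 turned to 0.000312 with library totals, a scaling that moved all log2 ratios by 0.09. Over all genes, 72 of 169 calls were higher in replicate 2 with TMM and 112 of 177 with library totals, and 1 call was left with the dispersion added. Leaving out a library leaves no comparison between libraries to refit. No paired analysis was possible because there is 1 group.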

Other observations

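The hairpins of the cluster fell into 2 kinds by base composition. In the 6 with a hairpin sequence in the reference, G and C made up 51.6% of Mir322, 54.9% of Mir503 and 51.8% of Mir542, against 36.2% of Mir450a-2, 33.0% of Mir450a-1 and 30.5% of Mir450b. Predicted folding energies (RNAfold) were -42.9 kcal/mol for Mir322 (95 bases), -41.0 for Mir450a-1 (91) and -38.1 for Mir542 (85). Those of Mir503 (71 bases), Mir450b (82) and Mir450a-2 (69) were -37.6, -31.8 and -26.5 kcal/mol. The energies are of whole hairpins and were not scaled by length. As counted, the levels were 46826 ± 5454 CPM for Mir322, 1914 ± 87.6 CPM for Mir503 and 1051 ± 5.92 CPM for Mir542 (SD, n = 2). Mir450b stood at 320 ± 18.2 CPM. Mir450a-1 and Mir450a-2 stood at 39.7 ± 2.11 and 19.7 ± 2.43 CPM, which are lower bounds. These values are given as a description of 6 hairpins, and their part in the levels was not tested.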
